A study of Mus musculus with 11 samples.

Results

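The genes of MHC class II antigen presentation were followed in hematopoietic stem cells (HSCs) sorted from mice, the cells of the bone marrow that renew the blood. The list was chosen by name and held 9 genes, of which 8 had a probe set that the platform annotation assigns to that gene alone, among 22180 genes measured in all. These were the chain genes H2-Ab1, H2-Aa and H2-Eb1, the peptide editor genes H2-DMa and H2-DMb1, the editor's inhibitor genes H2-Oa and H2-Ob, and the coactivator gene Ciita. Cd74, the invariant chain gene, lay on a probe set assigned to several genes and is not analysed here. The 11 Affymetrix arrays comprised 3 of HSCs from mice given all-trans retinoic acid (ATRA) and then polyIC (RApIC), 2 from mice given polyIC alone (pIC), 3 from mice given ATRA alone, and 3 from mice given PBS. ATRA is the active form of vitamin A, and polyIC is a synthetic RNA, read by cells as viral, that triggers interferon. Every group was sorted as HSCs by flow cytometry. The sources used here do not give strain, age, doses, times, the sorting gate or whether replicates came from separate mice. The p-values therefore reflect the spread between these arrays alone, and that spread may be technical.

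MHC class II molecules are pairs of an alpha and a beta chain that display peptides from the endosomal route to CD4+ T cells, and they are best known from B cells, dendritic cells and macrophages. The invariant chain guides new class II molecules to the endosome, cathepsins trim it there, H2-DM exchanges the remaining fragment for a peptide, and H2-O restrains H2-DM. The coactivator CIITA does not bind DNA itself, and acts on class II promoters through RFX at the X box, CREB beside it and NF-Y at the Y box, with interferon gamma and IRF1 as its textbook inducers.

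Promoter sequence is shown here because 5 of the 6 listed genes with a window at hand hold paired X and Y core letters. RFX and NF-Y are known to read such boxes, and binding was not measured here. RefSeq promoter windows (GRCm38.p6, 250 bases before to 50 after the annotated start) were at hand for 6 of the 9 listed genes. The letters searched were GNAAC for the X core and GATTGG for the Y core, with 10 to 30 bases between them so that they cannot overlap, and they were chosen after these windows had been read. The ordered pair was found in 5 of the 6 genes, and among all 32851 windows of this length it was found in 1.2% on either strand and in 0.621% on the gene's own strand. These are shares of single windows. Since the letters were picked on the members' own windows, they are a description and no test. GATTGG alone was found in 16.1% of windows and GNAAC alone in 84.8%. Capitals mark the X core and then the Y core, each read 5′ to 3′ on the gene's strand.
H2-Aa: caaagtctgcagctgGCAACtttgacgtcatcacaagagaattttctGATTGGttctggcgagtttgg
H2-Eb1: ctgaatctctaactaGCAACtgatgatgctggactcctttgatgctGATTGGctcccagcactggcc
H2-DMb1: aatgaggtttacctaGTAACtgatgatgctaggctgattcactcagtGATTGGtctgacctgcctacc
H2-Oa: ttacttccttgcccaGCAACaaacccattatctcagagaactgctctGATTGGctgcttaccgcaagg
H2-Ob: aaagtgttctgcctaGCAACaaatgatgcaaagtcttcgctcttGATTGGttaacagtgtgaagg
The H2-Aa stretch lies at chr17:34287852-34287919 on the minus strand. The other stretches lie on the plus strand, H2-Eb1 at chr17:34305761-34305827, H2-DMb1 at chr17:34153082-34153149, H2-Oa at chr17:34092288-34092355 and H2-Ob at chr17:34238803-34238867. The cores were 27 bases apart in H2-Aa, H2-DMb1 and H2-Oa, 26 in H2-Eb1 and 24 in H2-Ob. H2-DMa held the Y core without the ordered pair, which says only that these letters are not in its windows. The pair was present in members that rose with pIC (H2-Aa and H2-Eb1) and in members that did not pass the test (H2-DMb1, H2-Oa and H2-Ob).

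Values are log2 intensities, and every change is the log2 difference of group means, given ± its standard error. All arrays entered 1 limma fit, and a gene was called at an adjusted p under 0.05. Array medians lay between 6.19 and 6.28, and pairs of arrays correlated at 0.968 to 0.989 over all genes. The small number of arrays limits the precision of each value. Stem cell markers were measured in every group, for example Kit between 11.71 and 12.46 over the 11 arrays. Kit does not stand for the list, since 8 of 11 stem cell markers fell with pIC against PBS (median change -0.66). PBS replicate 3 and RApIC replicate 2 stood apart from the other arrays of their groups in the class II chains. The changes of the chain genes are given with all arrays and without the arrays that stood apart where these enter the comparison.

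The 3 chain genes gave the widest range of values. H2-Ab1, the beta chain of the I-A molecule, read 11.43, 10.25 and 11.31 in RApIC, 11.67 and 11.55 in pIC, 9.26, 9.22 and 9.23 in ATRA, and 9.62, 9.55 and 10.62 in PBS. Both pIC arrays lay above every PBS and ATRA array, and the ATRA arrays lay below all others. H2-Aa, the alpha chain of I-A, read 9.49, 9.05 and 9.57 in RApIC, 9.92 and 9.85 in pIC, 7.66, 7.93 and 8.46 in ATRA, and 8.35, 8.04 and 9.41 in PBS. Here too the pIC arrays were the highest, and PBS replicate 3 lay among the RApIC arrays. H2-Eb1, the beta chain of the I-E molecule, read 9.63, 8.89 and 9.52 in RApIC, 9.69 and 9.87 in pIC, 7.95, 8.42 and 7.95 in ATRA, and 7.99, 8.11 and 9.09 in PBS. Its highest PBS array exceeded its lowest RApIC array.

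H2-DMa, the alpha chain of the peptide editor, followed the chains over a smaller range. It read 11.003, 10.73 and 10.88 in RApIC, 11.08 and 11.03 in pIC, 10.30, 10.32 and 10.45 in ATRA, and 10.50, 10.51 and 10.78 in PBS. Its pIC arrays lay above all other arrays and its ATRA arrays below all others. H2-DMb1, a beta chain of the editor, read 6.35, 6.28 and 6.32 in RApIC, 6.46 and 6.33 in pIC, 6.16, 6.01 and 6.28 in ATRA, and 6.19, 6.12 and 6.34 in PBS. Its groups overlapped in every tested comparison, while both pIC arrays lay above all ATRA arrays. Its mean over the 11 arrays, 6.26, lay within the range of the array medians.

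The genes of H2-O, the editor's inhibitor, did not share this order. H2-Oa read 7.79, 7.97 and 7.77 in RApIC, 8.02 and 7.77 in pIC, 7.99, 7.80 and 8.20 in ATRA, and 8.02, 8.34 and 8.17 in PBS. The PBS arrays lay above all RApIC arrays and overlapped the other groups. H2-Ob read 7.99, 8.07 and 8.06 in RApIC, 8.18 and 7.85 in pIC, 8.02, 7.86 and 8.04 in ATRA, and 7.95, 8.03 and 8.58 in PBS. All its groups overlapped, and PBS replicate 3 was the highest array. Ciita, the coactivator, read 7.5, 7.10 and 7.15 in RApIC, 7.59 and 7.67 in pIC, 6.64, 7.0 and 7.03 in ATRA, and 7.0, 6.97 and 7.29 in PBS. Both pIC arrays were its highest.

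**Figure D1:**
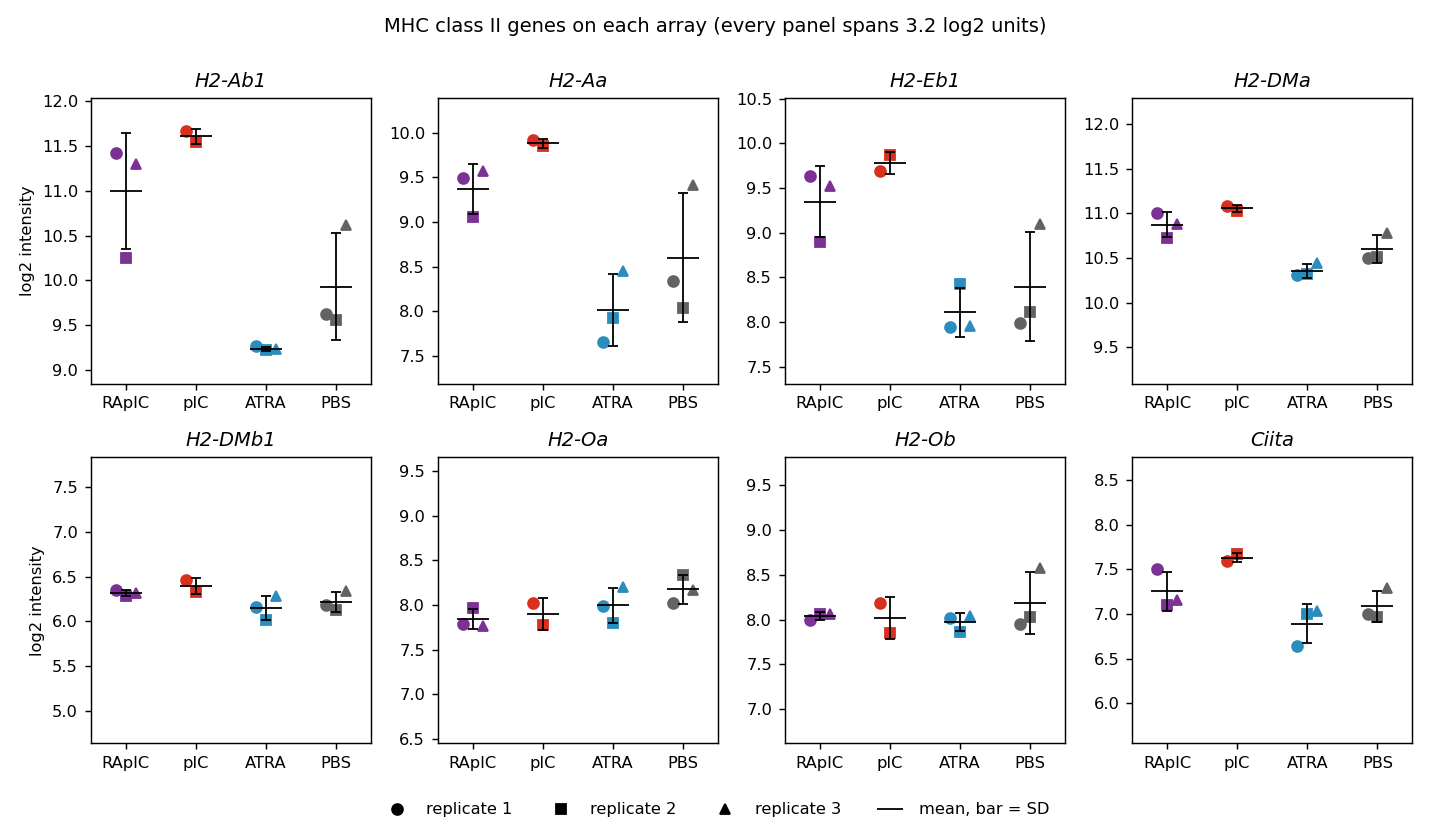
Log2 intensity of the 8 class II genes on each of the 11 arrays, by group (horizontal axis), with replicate numbers as marker shapes, the mean as a dash and the SD as a bar. In H2-Ab1 the values are 11.67 and 11.55 in pIC, the highest, and 9.26, 9.22 and 9.23 in ATRA, the lowest, while PBS replicate 3 at 10.62 lies above RApIC replicate 2 at 10.25.

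By group mean, 6 of the 8 genes ran in the order pIC, RApIC, PBS, ATRA from high to low, an order found in 12.4% of all genes. H2-Ab1 averaged 10.99 ± 0.65 in RApIC (SD, n = 3), 11.61 ± 0.08 in pIC (SD, n = 2), 9.23 ± 0.02 in ATRA and 9.93 ± 0.60 in PBS (SD, n = 3 each). No pair of neighbouring groups in that order passed the test in any of these genes. H2-Oa ran PBS, ATRA, pIC, RApIC, and H2-Ob ran PBS, RApIC, pIC, ATRA, with no comparison of either past the threshold. The pooled within-group SD was 0.47 for H2-Ab1, 0.47 for H2-Aa and 0.42 for H2-Eb1, and 98.4% to 98.9% of all genes had a smaller one. It was 0.12 for H2-DMa, which 40.6% of genes fell below, 0.10 for H2-DMb1, 0.16 for H2-Oa, 0.21 for H2-Ob and 0.19 for Ciita.

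Much of the chains' spread lay in PBS replicate 3 and RApIC replicate 2. PBS replicate 3 exceeded the mean of the other PBS arrays by 1.03 in H2-Ab1, 1.22 in H2-Aa and 1.05 in H2-Eb1, and it was above that mean in 7 of 8 members, against 51.8% of all genes. H2-Ob differed there by 0.59, Ciita by 0.30, H2-DMa by 0.27, H2-DMb1 by 0.18 and H2-Oa by -0.01. RApIC replicate 2 differed from the mean of the other RApIC arrays by -1.12 in H2-Ab1, -0.69 in H2-Eb1 and -0.48 in H2-Aa. The same array differed by -0.22 in both H2-DMa and Ciita, -0.05 in H2-DMb1, 0.19 in H2-Oa and 0.04 in H2-Ob.

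The comparison of pIC with PBS asks how class II genes respond to an interferon inducer. The 3 chain genes, H2-DMa and Ciita rose, and H2-DMb1, H2-Oa and H2-Ob did not pass the test. That is 5 of 8 members up and 0 down, where 8.94% of all genes rose and 5.75% fell. The members' median change was 0.50, against 0.0013 over all genes. H2-Ab1 rose by 1.68 ± 0.35, or 3.2-fold (95% interval 1.86 to 5.51, adjusted p = 0.0121). H2-Eb1 rose by 1.39 ± 0.32, or 2.61-fold (1.61 to 4.23, adjusted p = 0.0163). H2-Aa rose by 1.28 ± 0.35, or 2.43-fold (1.42 to 4.16, adjusted p = 0.0336). These 3 intervals overlapped widely, so the chains' order of change is not resolved. H2-DMa rose by 0.46 ± 0.11, or 1.37-fold (1.16 to 1.63, adjusted p = 0.0212), and Ciita by 0.54 ± 0.16, or 1.46-fold (1.15 to 1.85, adjusted p = 0.0399). In each of these 5 genes both pIC arrays lay above all 3 PBS arrays, as they did in 23.4% of all genes, and in 0 members did they lie below, against 19.6% of genes.

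Among the remaining members, H2-DMb1 differed by 0.18 ± 0.10 (adjusted p = 0.297), H2-Oa by -0.28 ± 0.14 (adjusted p = 0.228) and H2-Ob by -0.17 ± 0.17 (adjusted p = 0.6). Their 95% intervals were -0.04 to 0.40, -0.58 to 0.03 and -0.55 to 0.21, so the editor's beta chain and its inhibitor were bounded below the changes estimated for the 3 chains. Without PBS replicate 3 the chain estimates were larger, at 2.02 ± 0.31 for H2-Ab1, 1.69 ± 0.25 for H2-Aa and 1.73 ± 0.24 for H2-Eb1. There 5 members again rose, beside 7.11% of all genes. Without PBS replicate 1 or 2 only 1 member passed, H2-Ab1, where 5.67% and 5.53% of all genes rose. Leaving out pIC replicate 1 or 2 left 1 pIC array, and H2-Ab1 then gave 1.62 and 1.74. The calls of the 5 members rested on having both pIC arrays. Ciita was also lost without ATRA replicate 2 or RApIC replicate 3.

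The comparison of RApIC with ATRA gives the change with pIC after ATRA. H2-Ab1, H2-Aa, H2-Eb1 and H2-DMa rose, 4 of 8 members, where 3.5% of all genes rose and 3.71% fell. The median change was 0.44 in the members and -0.0033 over all genes. H2-Ab1 rose by 1.76 ± 0.32, or 3.39-fold (2.08 to 5.50, adjusted p = 0.0112). H2-Aa rose by 1.359 ± 0.31, or 2.57-fold (1.59 to 4.14, adjusted p = 0.0286), and H2-Eb1 by 1.24 ± 0.28, or 2.36-fold (1.53 to 3.63, adjusted p = 0.0276). The editor gene H2-DMa rose by 0.52 ± 0.10, or 1.43-fold (1.23 to 1.66, adjusted p = 0.0146). Ciita differed by 0.36 ± 0.14 and missed the threshold (adjusted p = 0.156), although its RApIC arrays lay above all ATRA arrays, as in the 4 genes that rose and in 11.7% of all genes. H2-DMb1 differed by 0.17 ± 0.09, H2-Oa by -0.15 ± 0.12 and H2-Ob by 0.07 ± 0.15, with adjusted p between 0.333 and 0.872. An unadjusted p under 0.05 was found for 5 of 8 members and 21.6% of genes.

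Leaving out RApIC replicate 2 gave 2.13 ± 0.26 for H2-Ab1, 1.52 ± 0.35 for H2-Aa, 1.47 ± 0.28 for H2-Eb1 and 0.59 ± 0.10 for H2-DMa. The count of 4 was kept there, beside 6.98% of all genes. The count was 0 without RApIC replicate 3, 1 without RApIC replicate 1 or ATRA replicate 1, 2 without ATRA replicate 2, and 2 when only the RApIC and ATRA arrays were fitted. H2-Eb1 was also lost without ATRA replicate 3. In the fits that lost calls, 0.663% to 1.68% of all genes rose, fewer than with all arrays. The change with pIC was also tested for a difference between backgrounds, as RApIC minus ATRA less pIC minus PBS. None of the 8 members passed limma's test, and neither did any other gene (0%), while 6.27% of genes had an unadjusted p under 0.05 and 0 members did. The interaction was 0.08 ± 0.48 for H2-Ab1, 0.08 ± 0.47 for H2-Aa, -0.15 ± 0.42 for H2-Eb1, 0.06 ± 0.15 for H2-DMa and -0.18 ± 0.21 for Ciita. The 95% interval of H2-Ab1 reached from -0.97 to 1.13, which leaves room for a wide range of differences, whereas that of H2-DMa reached from -0.27 to 0.39. Leaving out a single array changed the sign of each chain's estimate. Without PBS replicate 3 the interaction was -0.26 ± 0.40 for H2-Ab1, -0.33 ± 0.32 for H2-Aa, -0.50 ± 0.31 for H2-Eb1 and -0.03 ± 0.14 for H2-DMa. Without RApIC replicate 2 it was 0.45 ± 0.36 for H2-Ab1, 0.24 ± 0.49 for H2-Aa, 0.08 ± 0.40 for H2-Eb1 and 0.13 ± 0.14 for H2-DMa, and no member passed in either fit.

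**Figure D2:**
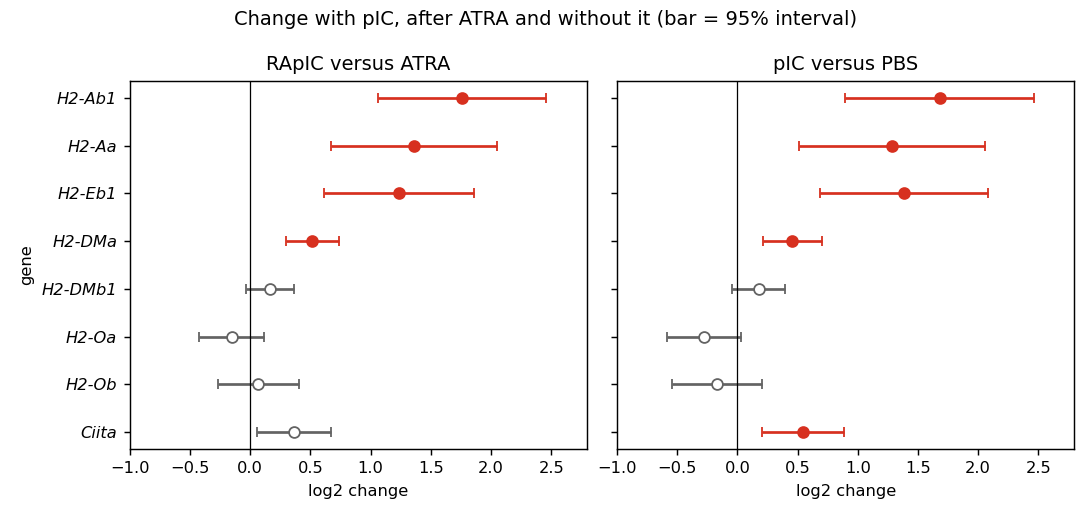
Log2 change of each class II gene for RApIC versus ATRA (left) and pIC versus PBS (right), with 95% intervals as bars and filled red points for genes that passed the test. H2-Ab1 lies at 1.76 and 1.68, and the intervals of H2-DMb1, H2-Oa and H2-Ob include 0 on both sides.

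The comparison of RApIC with PBS sets the combined treatment against the control. None of the 8 members passed limma's test, where 1.61% of all genes rose and 1.51% fell, and 5 of 8 members had an unadjusted p under 0.05, as did 18.7% of genes. H2-Ab1 differed by 1.06 ± 0.32 (adjusted p = 0.0961), H2-Eb1 by 0.95 ± 0.28 (adjusted p = 0.0946) and H2-Aa by 0.77 ± 0.31 (adjusted p = 0.211). The editor gene H2-DMa differed by 0.27 ± 0.10 (adjusted p = 0.162) and Ciita by 0.17 ± 0.14 (adjusted p = 0.579). H2-Oa, at -0.33 ± 0.12 (adjusted p = 0.169), was the only member without overlap between these groups, its RApIC arrays lying below all PBS arrays, as did those of 10.5% of genes, and 9.82% had them above. Here the arrays that stood apart decided the calls. Without PBS replicate 3, 3 members passed (H2-Ab1 at 1.41 ± 0.28, H2-Aa at 1.18 ± 0.23 and H2-Eb1 at 1.30 ± 0.22), where 0.902% of all genes rose. Without RApIC replicate 2, 2 passed (H2-Ab1 at 1.44 ± 0.26 and H2-Eb1 at 1.18 ± 0.28), where 5.48% of all genes rose, so calls increased well beyond the class II genes there. Without both, 4 passed, the 3 chains and H2-DMa, where 4.88% of all genes rose. Those arrays were picked on the class II values themselves, so the spread left within the groups is understated.

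The remaining comparisons ask what ATRA does to class II genes, without and with pIC. In ATRA against PBS, all 8 estimates were below 0, as were 11221 of 22180 genes. None of the 8 passed limma's test, where 0.00451% of all genes rose and 0% fell. H2-Ab1 differed by -0.69 ± 0.32 (adjusted p = 0.746), H2-Aa by -0.59 ± 0.31, H2-Eb1 by -0.29 ± 0.28 and Ciita by -0.19 ± 0.14. H2-DMa, at -0.24 ± 0.10, was the only member with an unadjusted p under 0.05 (adjusted p = 0.7), against 6.8% of genes. H2-DMb1 differed by -0.06 ± 0.09, H2-Oa by -0.18 ± 0.12 and H2-Ob by -0.21 ± 0.15. In H2-Ab1 and H2-DMa every ATRA array lay below every PBS array, as in 6.08% of genes, and 6.61% had them above. Without PBS replicate 3 the estimates were -0.35 ± 0.28 for H2-Ab1, -0.18 ± 0.23 for H2-Aa, 0.06 ± 0.22 for H2-Eb1 and -0.15 ± 0.10 for H2-DMa.

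In RApIC against pIC, 7 of 8 estimates were below 0, as were 12261 of 22180 genes. None of the 8 passed limma's test, as was true of every gene (0% up and 0% down). An unadjusted p under 0.05 was found for 10.1% of genes. H2-Ab1 differed by -0.62 ± 0.35 (adjusted p = 0.587), H2-Aa by -0.51 ± 0.35 and H2-Eb1 by -0.43 ± 0.32. H2-DMa differed by -0.18 ± 0.11 and Ciita by -0.38 ± 0.16, Ciita being the only member with an unadjusted p under 0.05 (adjusted p = 0.449). In these 5 genes all RApIC arrays lay below both pIC arrays, as in 17.4% of genes, and 9.74% had them above. Without RApIC replicate 2 the estimates were -0.24 ± 0.28 for H2-Ab1, -0.35 ± 0.38 for H2-Aa, -0.21 ± 0.31 for H2-Eb1, -0.11 ± 0.11 for H2-DMa and -0.30 ± 0.17 for Ciita. Averaged over both backgrounds, the ATRA estimate was below 0 in all 8 members with a median of -0.25. Over all genes it was below 0 in 12152 of 22180, with a median of -0.0132. None of the 8 passed, where 0.0361% of genes rose and 0.00451% fell. That average was -0.65 ± 0.24 for H2-Ab1 (adjusted p = 0.349), -0.55 ± 0.24 for H2-Aa (adjusted p = 0.437), -0.29 ± 0.10 for Ciita (adjusted p = 0.351) and -0.21 ± 0.07 for H2-DMa (adjusted p = 0.336). These 4 members had an unadjusted p under 0.05, as did 10.7% of genes. Without PBS replicate 3 the average was -0.48 ± 0.20 for H2-Ab1, -0.34 ± 0.16 for H2-Aa and -0.19 ± 0.15 for H2-Eb1 (-0.36 ± 0.21 with all arrays), and H2-Ob lay at 0.0036 ± 0.08, so that the count of 8 below 0 rested on that array. Without RApIC replicate 2 it was -0.47 ± 0.18 for H2-Ab1, -0.47 ± 0.24 for H2-Aa and -0.25 ± 0.20 for H2-Eb1.

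**Figure D3:**
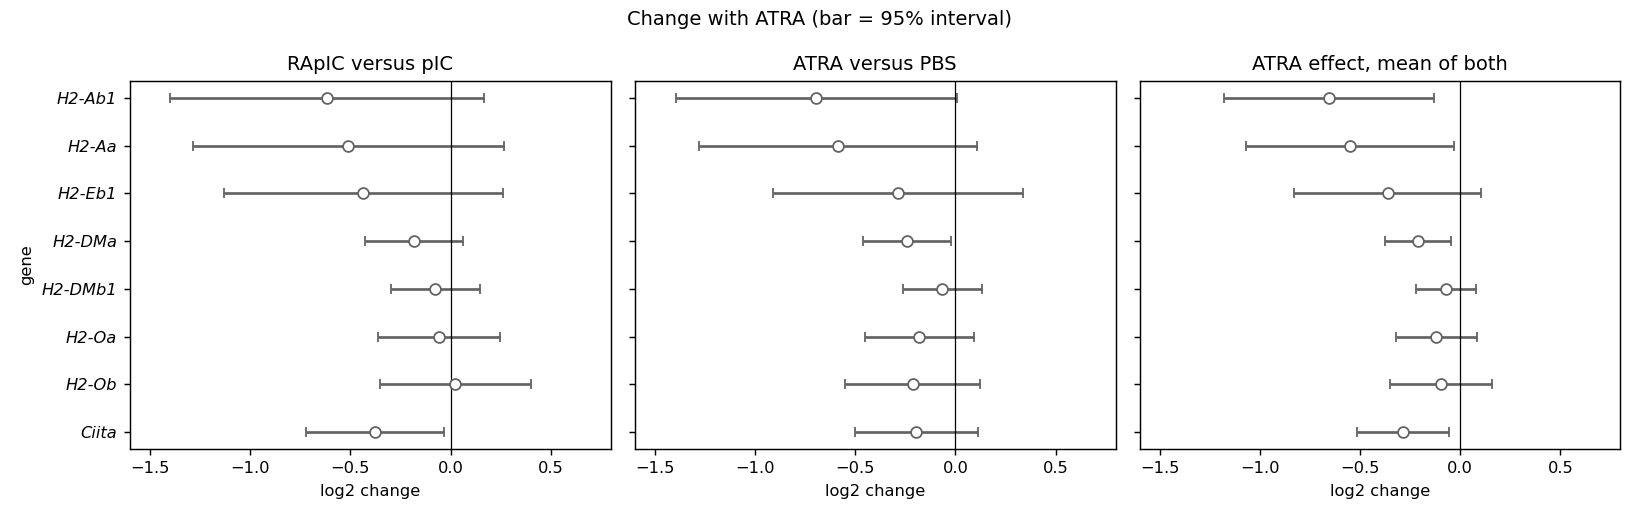
Log2 change of each class II gene for RApIC versus pIC, for ATRA versus PBS and for the mean of both, with 95% intervals as bars and open points because no gene passed the test. H2-Ab1 lies at -0.62, -0.69 and -0.65 in the 3 panels, and only H2-Ob in RApIC versus pIC lies above 0.

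Of 12 regulators, some acting at class II promoters and others linked to CIITA, 2 rose and 1 fell with pIC against PBS. Over all genes 8.94% rose and 5.75% fell there. The list's median change was 0.10, with changes between -0.29 and 0.69. An unadjusted p under 0.05 was found for 5 of the 12 there (41.7%, against 27.5% of all genes) and for 6 of the 12 in RApIC against ATRA (21.6% of all genes). Nfyb, a subunit of the Y box factor NF-Y, read 7.97 and 8.02 in pIC, against 7.35, 7.31 and 7.27 in PBS, and rose by 0.69 ± 0.09 (adjusted p = 0.00186). Rfxap, a subunit of the X box factor RFX, rose by 0.31 ± 0.09 (adjusted p = 0.0414), while Rfx5, the subunit that binds the X box, gave -0.29 ± 0.12, short of the threshold (adjusted p = 0.134). Crebbp, a histone acetyltransferase recruited by CIITA, fell by 0.28 (adjusted p = 0.0357). In RApIC against ATRA only Ezh2, the Polycomb methyltransferase, listed as linked to CIITA, rose (0.34 ± 0.07, adjusted p = 0.0183). None of the list fell there, where 3.5% of all genes rose and 3.71% fell. In RApIC against PBS, where 1.61% of all genes rose, Nfyb alone passed (0.36 ± 0.08, adjusted p = 0.0371). With each array left out in turn, Nfyb in pIC against PBS kept its call in 11 of 11 fits, and Rfxap in 3, Crebbp in 4, Ezh2 in RApIC against ATRA in 7 and Nfyb in RApIC against PBS in 1. Without RApIC replicate 2, 1 regulator fell in RApIC against ATRA, where 1665 of 22180 genes fell.

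Of 10 measured genes of the signals that induce Ciita, 1 rose and 2 fell with pIC against PBS. Over all genes 8.94% rose and 5.75% fell there, and the list's median change was 0.27. Socs1, a feedback inhibitor of JAK signalling, read 9.13 and 9.29 in pIC, against 8.10, 8.19 and 8.27 in PBS, and rose by 1.02 ± 0.22 (adjusted p = 0.012). Irf2, a factor of the interferon response, fell by 0.30 (adjusted p = 0.0367), and the kinase gene Jak1 fell by 0.32 (adjusted p = 0.0389). Irf8, a myeloid and B cell factor, gave 0.84 ± 0.32, short of the threshold (adjusted p = 0.107). In RApIC against ATRA none of the list rose, and Irf2 fell by 0.31 (adjusted p = 0.0308), where 3.5% of all genes rose and 3.71% fell. In RApIC against PBS none of the list passed limma's test, and 3 of 10 had an unadjusted p under 0.05, against 18.7% of all genes. Without RApIC replicate 2 more of the list passed, with 5 up and 2 down in pIC against PBS, 4 up and 2 down in RApIC against ATRA, and 4 up and 2 down in RApIC against PBS. Over all genes more passed there too, with 10.8%, 6.98% and 5.48% up in these comparisons. Of 22180 genes 1667, 1665 and 1253 fell. Socs1 lost its call without pIC replicate 1 or 2 (adjusted p = 0.0603 and 0.0983), and the calls of Jak1 and Irf2 were lost without several arrays each, among them either pIC array.

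Peptide and invariant chain processing held the largest change of the 4 pathway lists in pIC against PBS. Of 9 genes, 2 rose and 1 fell with pIC against PBS, where 8.94% of all genes rose and 5.75% fell. The list's median was 0.07. Ctss encodes cathepsin S, the protease that makes the last cuts in the invariant chain. It read 10.73, 9.11 and 9.997 in RApIC, 10.56 and 10.31 in pIC, 8.47, 8.35 and 8.57 in ATRA, and 7.86, 8.24 and 8.38 in PBS. Every array given pIC lay above every array that was not. Ctss rose by 2.27 ± 0.35, or 4.84-fold, in pIC against PBS (adjusted p = 0.00355), by 1.49 ± 0.31, or 2.8-fold, in RApIC against ATRA (adjusted p = 0.0205), and by 1.79 ± 0.31 in RApIC against PBS (adjusted p = 0.0159). Ifi30, the lysosomal thiol reductase, rose by 0.62 ± 0.15 in pIC against PBS (adjusted p = 0.0233) and by 0.56 ± 0.14 in RApIC against ATRA (adjusted p = 0.0362). With each array left out, Ctss kept its call in 11 of 11 fits for pIC against PBS and in 7 for RApIC against ATRA, where it was lost without any 1 of the ATRA arrays or RApIC replicate 3. In RApIC against PBS it kept it in 8, and was lost without PBS replicate 1 or 2 or RApIC replicate 3. The calls of Ifi30 were kept in 7 fits for pIC against PBS and 3 for RApIC against ATRA. Without RApIC replicate 2, 2 genes of the list rose in RApIC against PBS, where 5.48% of all genes rose.

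Ctsh, which encodes cathepsin H, moved the other way. It read 6.92, 7.37 and 7.13 in RApIC, 6.95 and 6.98 in pIC, 8.62, 8.47 and 8.22 in ATRA, and 7.81, 8.07 and 7.96 in PBS. The arrays given pIC lay below all others and the ATRA arrays above all others. Ctsh fell by 0.99 in pIC against PBS (adjusted p = 0.00319), by 1.29 in RApIC against ATRA (adjusted p = 0.000921) and by 0.81 in RApIC against PBS (adjusted p = 0.0115). In ATRA against PBS the difference was 0.48 ± 0.13, short of the threshold (adjusted p = 0.415). Ctsl, which encodes cathepsin L, fell in RApIC against ATRA by 0.47 (adjusted p = 0.0275). That made 2 up and 2 down of 9 there, where 3.5% of all genes rose and 3.71% fell. In RApIC against PBS the list had 1 up and 1 down, where 1.61% of all genes rose and 1.51% fell. The calls of Ctsh were kept in 11 of 11 fits with an array left out in pIC against PBS and in RApIC against ATRA, and in 9 in RApIC against PBS (lost without PBS replicate 2 or RApIC replicate 3), and that of Ctsl in 7.

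The 5 measured genes of other class II chains and of class II turnover gave no call in any comparison of groups. H2-DMb2, the second beta chain gene of the editor, differed by 0.41 ± 0.28 with pIC against PBS (adjusted p = 0.407), and H2-Eb2 by -0.04 ± 0.13. Marchf1, a ubiquitin ligase that removes class II from the surface, differed by -0.03 ± 0.10. No gene of the regulator, signal, processing or other-chain lists passed in ATRA against PBS or in RApIC against pIC. The smallest adjusted p there were 0.415 for Ctsh in ATRA against PBS and 0.252 for Rfxap in RApIC against pIC.

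**Figure D4:**
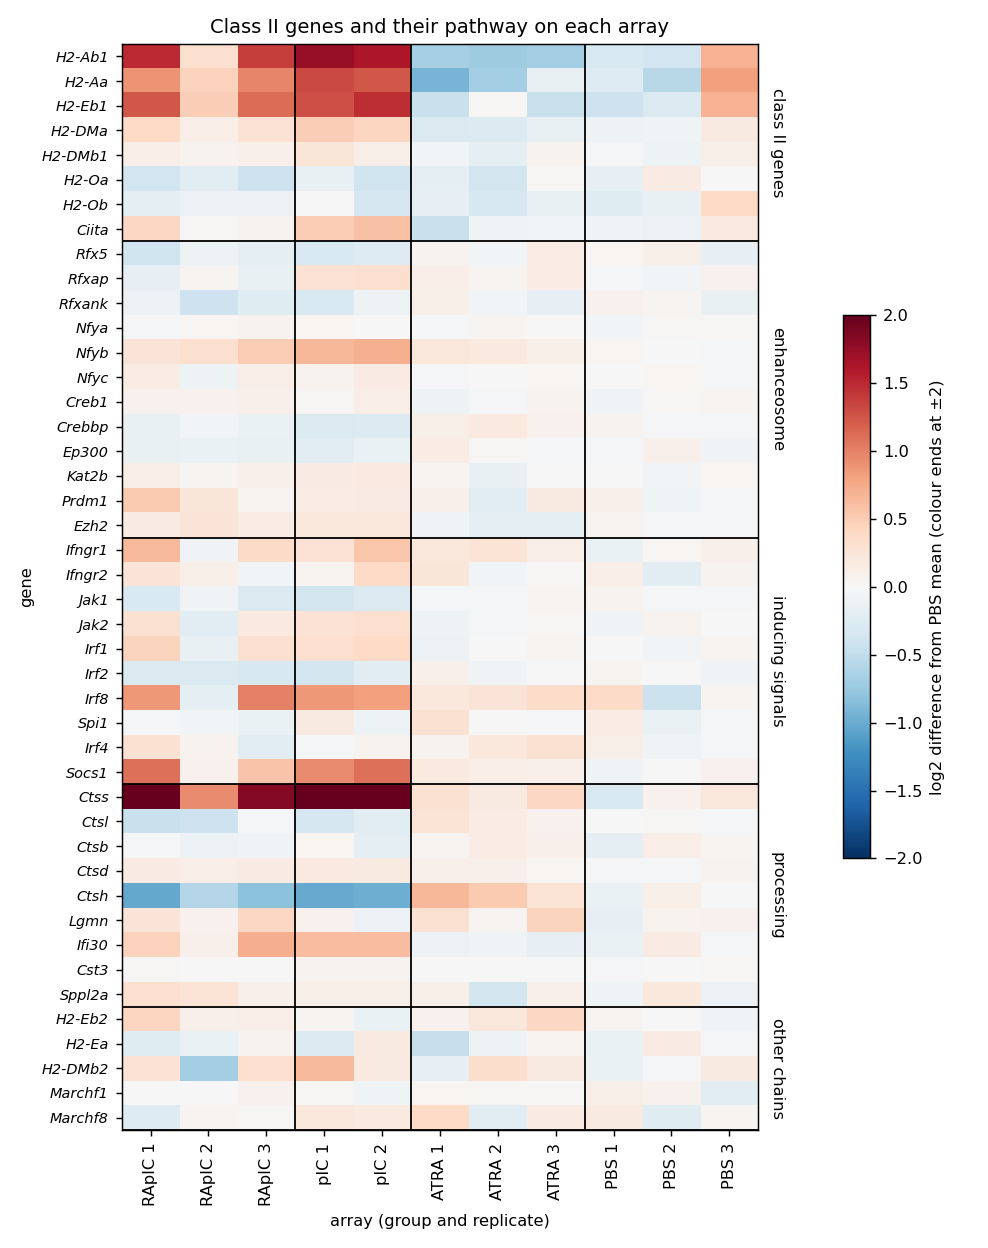
Log2 difference from the PBS mean for the class II genes and 4 pathway lists (rows) on each of the 11 arrays (columns, by group), in colour that ends at ±2. The red of H2-Ab1, H2-Aa, H2-Eb1 and Ctss in the pIC and RApIC columns is paler in RApIC replicate 2, and Ctsh is blue in those columns.

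Genes of the MHC class I route are set beside class II because interferon raises many of them, some through the related coactivator NLRC5. The 18 measured genes, called class I genes here, include chain genes such as H2-K1 and B2m and the coactivator gene Nlrc5 itself. Also listed are proteasome, peptide transport and peptide loading genes. Of the 18, 14 rose with pIC against PBS (median 0.81), where 8.94% of all genes rose. With RApIC against ATRA 8 rose (median 0.53), where 3.5% of all genes rose. Of the 8 class II genes, 5 and 4 rose in these comparisons. Nlrc5 rose by 0.88 ± 0.16 in pIC against PBS (adjusted p = 0.00676) and by 0.96 ± 0.14 in RApIC against ATRA (adjusted p = 0.00508), where Ciita gave 0.54 and 0.36. In RApIC against PBS 7 class I genes rose (median 0.58), among them Nlrc5 and Tap1, while 0 class II genes and 1.61% of all genes did. The class I count was 8 and 6 without pIC replicate 1 and 2 in pIC against PBS, 16 without RApIC replicate 2 in RApIC against ATRA and 5 there without ATRA replicate 1 or 2 or RApIC replicate 1 or 3. In RApIC against PBS it was 17 without RApIC replicate 2, 1 without PBS replicate 1 or RApIC replicate 1, 4 without ATRA replicate 3, and 0 without PBS replicate 2 or RApIC replicate 3. Without RApIC replicate 2, 6.98% of all genes rose in RApIC against ATRA and 5.48% in RApIC against PBS. In the other fits named, 1.04% to 1.49% and 0.347% to 0.924% did. With ATRA, all 18 class I estimates lay below 0 in RApIC against pIC (median -0.22) and averaged over both backgrounds (median -0.12). In ATRA against PBS 11 of 18 did (median -0.02), and no class I gene passed in any of these. An ATRA estimate below 0 was therefore not particular to class II genes. The difference between the lists was not tested. PBS replicate 3 lay at 0.73 from the PBS mean in the mean of the 3 class II chains, while the class I medians of the PBS arrays lay between -0.05 and 0.07.

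RNA of other cells in the sort is relevant to class II genes. In bulk samples a change in the number of cells of a type and a change in RNA per cell cannot be told apart. A marker that rose may thus have risen in the sorted cells themselves, which was not tested. Of 10 B cell markers none passed limma's test in pIC against PBS, where 8.94% of all genes rose and 5.75% fell. An unadjusted p under 0.05 was found for 1 of them and for 27.5% of all genes. The summed intensity of the B cell markers was 699 to 801 in RApIC, 777 to 782 in pIC, 686 to 823 in ATRA and 681 to 751 in PBS. The B cell gene Ms4a1 lay between 4.96 and 5.23 on all arrays, below every array median, so its steadiness says little. Cd79b, the brightest of the list, read 8.14, 8.04 and 8.07 in RApIC, 8.33 and 8.05 in pIC, 8.07, 7.83 and 8.02 in ATRA, and 7.84, 7.95 and 8.04 in PBS. Both its pIC arrays lay above all PBS arrays, as in 23.4% of all genes, and overlapped the ATRA arrays. Of 11 dendritic cell markers, Clec10a rose (0.91 ± 0.17) and Fscn1 fell by 0.70 with pIC, calls that were lost without pIC replicate 1 for Clec10a and without pIC replicate 2 for Fscn1. Their sum was 874 to 943 in RApIC, 865 to 968 in pIC, 1024 to 1076 in ATRA and 919 to 1030 in PBS, and Itgax lay between 5.29 and 5.65 on all arrays.

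Of 13 monocyte and macrophage markers 3 rose with pIC against PBS, where 8.94% of all genes rose. These were Mpeg1 by 4.34 ± 0.67, Ly6c2 by 3.64 ± 0.75 and Fcgr1 by 1.45 ± 0.25, and the median over the list was -0.01. The list's sum was 1913 to 3452 in RApIC, 2937 to 2992 in pIC, 1555 to 1737 in ATRA and 1443 to 1629 in PBS. Most of its rise from PBS to pIC lay in Mpeg1 and Ly6c2, while Csf1r lay between 5.96 and 6.36 on all arrays. Of 13 T and NK cell markers 3 rose with pIC, Nkg7, Ccl5 and Gzmb, again beside 8.94% of all genes. The list's median was 0.90, and its 3 calls rested on pIC replicate 2. Without RApIC replicate 2, 8 were called, where 10.8% of all genes rose. The list's sum was 1777 to 11780 in RApIC, 10330 to 10350 in pIC, 1321 to 1722 in ATRA and 1244 to 1708 in PBS. Ccl5, at 12.94 and 12.79 in pIC against 7.51, 8.28 and 8.36 in PBS, made up most of the sum in both pIC arrays. Cd3e read 8.67, 6.25 and 8.33 in RApIC, 7.5 and 8.17 in pIC, 6.92, 6.92 and 6.75 in ATRA, and 6.42, 6.33 and 6.82 in PBS. RApIC replicate 2, the lowest RApIC array in the class II chains, was also the lowest in Cd3e and in the class I genes. PBS replicate 3 was the highest PBS array in the chains and in Cd3e. Cd3e is 1 of 13 markers, chosen after its values were seen, and PBS replicate 3 was not the highest PBS array in Cd5 or Gzmb. The part of T and NK cell RNA in the class II changes was not tested. None of 10 neutrophil markers passed with pIC against PBS, with 0 at an unadjusted p under 0.05, and their sum was 1537 to 2085 in RApIC, 1510 to 1564 in pIC, 1991 to 3878 in ATRA and 1323 to 1548 in PBS.

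Markers of the sorted type moved as well, since 8 of 11 stem cell markers fell with pIC against PBS, where 5.75% of all genes fell. Among them were Hlf by 1.81 and Fgd5 by 1.66, and 3 markers fell without pIC replicate 2. The sum of the list was 10890 to 16220 in RApIC, 11180 to 11340 in pIC, 18180 to 19330 in ATRA and 17910 to 19230 in PBS. The list's median lay at -0.67, -0.29 and -0.62 from the PBS mean in RApIC and at -0.61 and -0.71 in pIC. The mean of the 3 class II chains lay at 1.21, 0.42 and 1.16 in RApIC, 1.45 and 1.45 in pIC, -0.68, -0.45 and -0.43 in ATRA, and -0.32, -0.41 and 0.73 in PBS. RApIC replicate 2 was closest to PBS among the pIC-treated arrays in the chains, the class I genes and the stem cell markers alike.

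**Figure D5:**
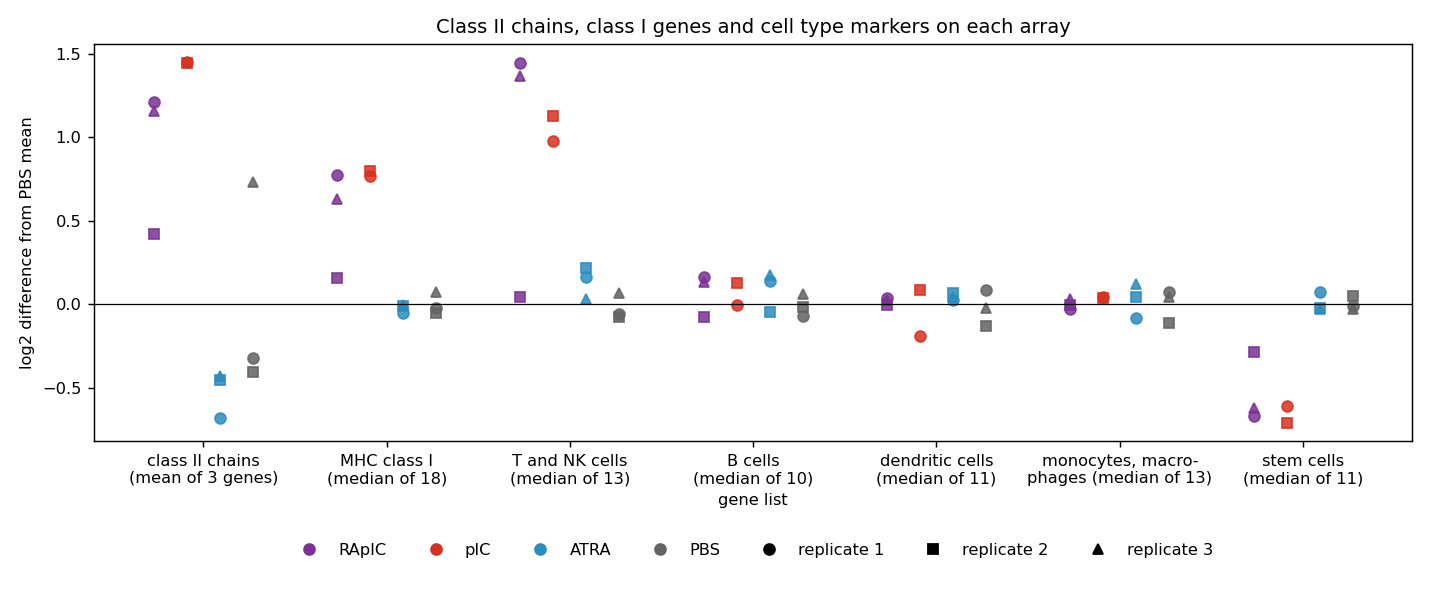
Log2 difference from the PBS mean on each array for the mean of the 3 class II chains and for the medians of the class I and cell type marker lists (horizontal axis), coloured by group with replicate numbers as marker shapes. RApIC replicate 2 lies at 0.42 in the class II chains and 0.04 in T and NK cells, against 1.21 and 1.45 for RApIC replicate 1, and PBS replicate 3 stands at 0.73 in the class II chains.

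Members were also set against the mean of H2-Ab1, H2-Aa and H2-Eb1 over the 11 arrays, as a description across arrays that share groups and normalisation. H2-DMa correlated with it at 0.982, Ciita at 0.902, H2-DMb1 at 0.827, H2-Ob at 0.216 and H2-Oa at -0.471. Outside the list the closest genes were Timm50 (0.981), a subunit of the mitochondrial import machinery, Cd180 (0.98), a Toll-like receptor relative of B cells, and Cct7 (0.975), a chaperonin subunit, followed by Ecsit (0.972), Pon3 (0.972), Cdk2ap1 (0.969), Snrpd3 (0.968), Atp5md (0.967), Mrpl2 (0.966) and Cpsf2 (0.966). Without the 2 arrays farthest from the median of that mean, ATRA replicate 1 and pIC replicate 1, these 10 lay between 0.954 and 0.99. This check could change little, since pIC replicate 2 (1.447) lay beside pIC replicate 1 (1.451) and PBS replicate 3 and RApIC replicate 2 stayed in. These correlations follow differences between groups as well as within them, so deviations from the group means were compared too, and there H2-DMa correlated at 0.919, Ciita at 0.726, H2-Ob at 0.638, H2-DMb1 at 0.557 and H2-Oa at -0.225. The closest genes by deviations were Cxcr6 (0.974), Trir (0.962), Gm14007 (0.962), Rpl34 (0.954), Kap (0.954), Txnl1 (0.954), Gprin3 (0.95), Gm19872 (0.949), Shkbp1 (0.948) and Cyp2g1 (0.942), none of which is among the 10 above. Deviations were not compared without PBS replicate 3 and RApIC replicate 2, where much of the chains' spread lay.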

How the data were processed

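A PicoPure kit and DNase were used to prepare total RNA, and biotin was added by in vitro transcription, per the labels' protocols. The deposited values are log2 intensities of 41345 probe sets on 11 arrays, and the submitters' processing notes name oligo 1.36.1, RMA and limma 3.28.20 without order or role. The sources used here give no genome build, array batch or RNA quality. The platform table pairs 23521 probe sets with 1 gene, 1814 with several and leaves 16010 unlisted. For a gene with several probe sets the one with the highest mean was used, giving 22180 genes, with no filter on dim genes. IDs of 23328 probe sets matched the RefSeq table.

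A mean per group was fitted with limma 3.58.1 in R 4.3.3 (7 residual degrees of freedom, 10.72 with the prior), with empirical Bayes, two-sided tests and Benjamini-Hochberg adjustment over all genes at 0.05. Intervals are 95%. The fit was tested on simulated data. The 7 contrasts share arrays, so their results are not independent. The members and lists were chosen with earlier results of these data known. Every member was named in every contrast, with up to 4 genes of each pathway list by adjusted p, some of which are left out, and the 10 genes most like the class II chains. Likeness was planned on Cd74 as well and rests on the other 3 genes. Genes named beyond this, such as Rfx5, Nlrc5, Cd3e, Ms4a1, Cd79b, Itgax and Csf1r, were chosen after their values were seen. Summed intensities add the linear values of a list. Alternatives were cyclic loess scaling, array weights, leaving out the dimmest 40% of genes, the replicate number as a block, probe sets averaged by gene or taken singly, only the groups compared, a trend with robust prior, and each array left out. Figures were drawn in Python 3.11.15 with matplotlib 3.10.9.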

Additional observations from a re-analysis of the deposited data

How the results depend on the processing

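Over 20 alternatives, 1 of them chosen after seeing the data, no called change of a class II or named pathway gene turned its sign, and 34 of 1464 values changed sign without having been called. With each array left out in turn, the number of class II genes that rose was 0 to 5 for pIC against PBS (5 in the fit of all arrays), 0 to 4 for RApIC against ATRA (4) and 0 to 3 for RApIC against PBS (0). Fitting only the groups compared gave 2 for RApIC against ATRA, where 0.663% of all genes rose. Array weights gave 2 up and 1 down, H2-Oa, for RApIC against PBS, where 7.1% of all genes rose. Leaving out PBS replicate 3 and RApIC replicate 2 together, chosen after seeing the data, gave 4 up there, beside 4.88% of all genes. H2-Aa in pIC against PBS missed the threshold with array weights (adjusted p = 0.0534) and with only the groups compared (adjusted p = 0.0795). Cyclic loess kept all 9 class II calls of these contrasts, while the share of upward calls among all genes called in pIC against PBS was 48.8%, against 60.9% without it. Over the alternatives, 392 to 2461 genes rose in pIC against PBS (1984 in the fit of all arrays), 147 to 2307 in RApIC against ATRA (777) and 31 to 1575 in RApIC against PBS (356). The class I genes that rose in RApIC against ATRA were 17 with array weights and 1 with only the groups compared, beside 10.4% and 0.663% of all genes. In RApIC against PBS they were 15 and 0, beside 7.1% and 0.14%. Deviations from group means correlated at -0.11 to 0.10 between same-numbered arrays (15 pairs) and at -0.14 to 0.11 between others (30 pairs). With groups of 2 or 3 arrays this cannot decide whether the numbers pair the samples. With the replicate block only Ciita among the class II calls missed the threshold (0.59 ± 0.17, adjusted p = 0.0545). The causes were not tested.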
